A study of Mus musculus with 6 samples.

Results

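The genes described here are 56 genes of mitosis, the spindle and cytokinesis, listed by symbol and sorted by role, of the 26814 genes with an entry in a count matrix of mouse lip RNA-Seq. A gene was tested where it reached 1 CPM (the count scaled to a library total of 1000000) in 3 or more libraries. All 56 passed this filter, among 15009 tested genes. The RNA came from the top lip of adult females, all on a C57BL/6J background. There were 3 wild type mice (WT) and 3 mice with a targeted Gtf2ird1 allele, tm1Hrd (labelled knockout, KO), with 1 library per mouse, named WT1, WT2, WT3, KO1, KO2 and KO3. Gtf2ird1 encodes a transcription factor of the Gtf2i family. The targeted allele is carried in every cell of these mice, whose zygosity the labels do not give, and the lip holds epidermis, hair follicles, dermis and muscle. The p-values weigh the difference between the genotypes against the spread between the 3 mice of each genotype.

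A dividing cell enters mitosis when the kinase Cdk1 is activated by its cyclins. Kinetochores then bind the spindle microtubules, and the spindle checkpoint holds back the anaphase-promoting complex (APC/C) until every chromosome is attached. Separase next cuts the cohesin that holds sister chromatids together, and the central spindle and contractile ring divide the cell. In adult skin, dividing cells lie mostly in the basal layer of the epidermis and in the hair matrix. Many of these genes are transcribed late in the cell cycle, and their promoters are known for a short element, the cell cycle genes homology region (CHR), which is bound by complexes that repress them in resting cells and activate them in dividing cells.

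Promoter sequences were compared because the members are known to be transcribed together. RefSeq (GRCm38.p6) gave a window of 250 bases before to 50 bases after a transcription start for 49 of the 56 genes. A CHR (TTTGAA or TTCGAA) was present on either strand in 37 of the 49 genes, 75.5%, and in 21.7% of all 27025 genes with a window. A CCAAT box (CCAAT) was present in 36 of the 49, 73.5%, against 41.1% of all genes. Both were present in 32 of the 49, 65.3%, against 8.61% of all genes, and a CHR and a CCAAT match overlapped in 1 member window. The letters of an E2F-like site (TTTGGCGC, TTTCGCGC, TTTCCCGC or TTTGCCGC) were present in 3 of the 49, 6.12%, against 2.61% of all genes. The windows of 6 genes that rose in KO libraries are printed, 5′ to 3′ in the direction of the gene, because they hold a CHR and had the lowest p-values among such genes. Capitals mark CHR and CCAAT matches on either strand, so that a CHR on the opposite strand reads TTCAAA and a CCAAT box ATTGG.
Kif2c (chr4:117178723-117179022, minus strand): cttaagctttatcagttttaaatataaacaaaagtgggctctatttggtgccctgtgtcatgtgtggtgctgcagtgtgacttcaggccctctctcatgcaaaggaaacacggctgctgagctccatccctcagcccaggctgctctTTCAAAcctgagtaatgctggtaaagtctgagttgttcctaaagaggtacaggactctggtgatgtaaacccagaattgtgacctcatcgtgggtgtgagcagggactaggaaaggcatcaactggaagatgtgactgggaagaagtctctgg
Kpna2 (chr11:106999476-106999775, minus strand): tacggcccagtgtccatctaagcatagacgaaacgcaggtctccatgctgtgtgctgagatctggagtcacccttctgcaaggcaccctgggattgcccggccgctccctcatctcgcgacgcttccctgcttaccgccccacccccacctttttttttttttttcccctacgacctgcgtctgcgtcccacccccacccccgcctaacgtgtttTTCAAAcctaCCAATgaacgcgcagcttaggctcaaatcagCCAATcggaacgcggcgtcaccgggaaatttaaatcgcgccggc
Spag5 (chr11:78301341-78301640, plus strand): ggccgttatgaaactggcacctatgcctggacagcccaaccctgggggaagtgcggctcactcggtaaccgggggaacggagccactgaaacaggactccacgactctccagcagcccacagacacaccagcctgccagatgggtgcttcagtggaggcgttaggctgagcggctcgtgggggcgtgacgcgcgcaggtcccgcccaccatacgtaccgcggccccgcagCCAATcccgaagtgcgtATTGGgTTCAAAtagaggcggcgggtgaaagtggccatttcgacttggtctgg
Prc1 (chr7:80294201-80294500, plus strand): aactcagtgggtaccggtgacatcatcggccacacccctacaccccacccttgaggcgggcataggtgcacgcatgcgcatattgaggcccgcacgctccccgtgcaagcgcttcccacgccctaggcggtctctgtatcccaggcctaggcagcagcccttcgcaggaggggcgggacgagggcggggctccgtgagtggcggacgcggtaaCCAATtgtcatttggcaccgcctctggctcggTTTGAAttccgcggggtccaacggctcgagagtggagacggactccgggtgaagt
Anln (chr9:22389157-22389456, minus strand): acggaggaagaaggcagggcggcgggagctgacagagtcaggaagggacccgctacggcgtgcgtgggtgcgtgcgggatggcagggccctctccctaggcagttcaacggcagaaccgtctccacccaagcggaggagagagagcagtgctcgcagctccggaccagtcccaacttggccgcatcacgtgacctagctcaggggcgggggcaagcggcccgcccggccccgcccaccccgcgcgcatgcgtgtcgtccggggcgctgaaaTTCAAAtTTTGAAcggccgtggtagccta
Top2a (chr11:99024140-99024439, minus strand): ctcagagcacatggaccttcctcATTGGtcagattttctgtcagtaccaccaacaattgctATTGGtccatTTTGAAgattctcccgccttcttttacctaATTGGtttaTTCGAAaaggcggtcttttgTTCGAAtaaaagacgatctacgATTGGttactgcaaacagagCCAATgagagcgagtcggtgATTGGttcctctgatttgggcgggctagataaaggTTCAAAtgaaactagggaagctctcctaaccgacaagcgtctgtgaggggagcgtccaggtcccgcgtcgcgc

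The arrangement of the letters differed among these windows. In Top2a there were 4 CHR and 6 CCAAT matches, whereas Kif2c held 1 CHR and Anln 2, both with no CCAAT match. The Kif2c window lies inside the annotated gene (chr4:117159639-117182639), so that it describes an internal start and not the 5′ end. Some windows that are not printed lie inside their genes as well, for example those of Kif14, Kif4, Cdca3 and Cdca8. Each of these holds a CHR and is counted here, and Kif14 and Kif4 are among the genes that rose. In Kpna2 the CHR began 35 bases before the start and in Prc1 5 bases before it, while in Spag5 it began 4 bases after the start. A CHR was found in 10 of the 12 windowed genes that rose with an adjusted p under 0.05 and in 27 of the 37 that did not. Genes with a CHR, 37 in all, had a median log2 fold change of 0.84, and the 12 without had one of 0.93. These matches describe the letters in the windows and show neither binding nor a cause.

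The libraries held between 20164081 and 29491767 counts, of which 23904 to 71755 fell on the 56 genes. Levels are given as CPM, scaled between libraries by TMM factors, and 3 counts in a library corresponded to 0.0986 to 0.154 CPM. The targeted gene, Gtf2ird1 (chr5:134357656-134456716, minus strand, GRCm38), was at 78.2, 70.2 and 70.7 CPM in WT1, WT2 and WT3 and at 166, 162 and 144 CPM in KO1, KO2 and KO3. Its count was therefore higher in KO as labelled (log2 fold change 1.11, SE 0.13, adjusted p = 0.0018), the reverse of what the label names. The counts cover the whole gene and do not show which exons the reads came from, and the part of the targeted allele in the higher count was not tested. Per the study's methods, the genotype of each mouse was checked again on tail biopsies taken with the lip tissue, a check of the mice that runs outside these counts. The genotype is given throughout as labelled, and KO libraries means the libraries labelled KO. Basal keratinocyte markers were at high levels in all libraries, with Krt5 between 4331 and 5372 CPM, as were muscle markers, with Ttn between 978 and 4599 CPM, while the 6 B and plasma cell markers together stayed between 0.953 and 1.67 CPM.

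The first question was whether the mitosis genes as a group differed between the genotypes. They were higher in the KO libraries, by a median of 0.87 on the log2 scale (quartiles 0.47 and 1.08), where the median over all 15009 tested genes was -0.02. In all, 16 of the 56 genes (28.6%) rose with an adjusted p under 0.05, against 4.38% of all tested genes called higher. None fell, where 2.09% of all tested genes were called lower, and in edgeR's quasi-likelihood test 0 members were lower with an unadjusted p under 0.05, as were 0 with an adjusted p under 0.05 in the exact test and in DESeq2. The fold change was positive in 54 of the 56 (48% of all genes) and was negative in Pttg1 and Aurkb alone. In 30 genes all 3 KO libraries were above all 3 WT libraries (13.5% of all genes), among them all 16 that rose, and no gene had all WT libraries above all KO libraries. With an unadjusted p under 0.05 there were 40 of the 56 (29.6% of all genes). A further 19 genes had an adjusted p between 0.05 and 0.1, so that the threshold passed through the middle of the group.

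**Figure D1:**
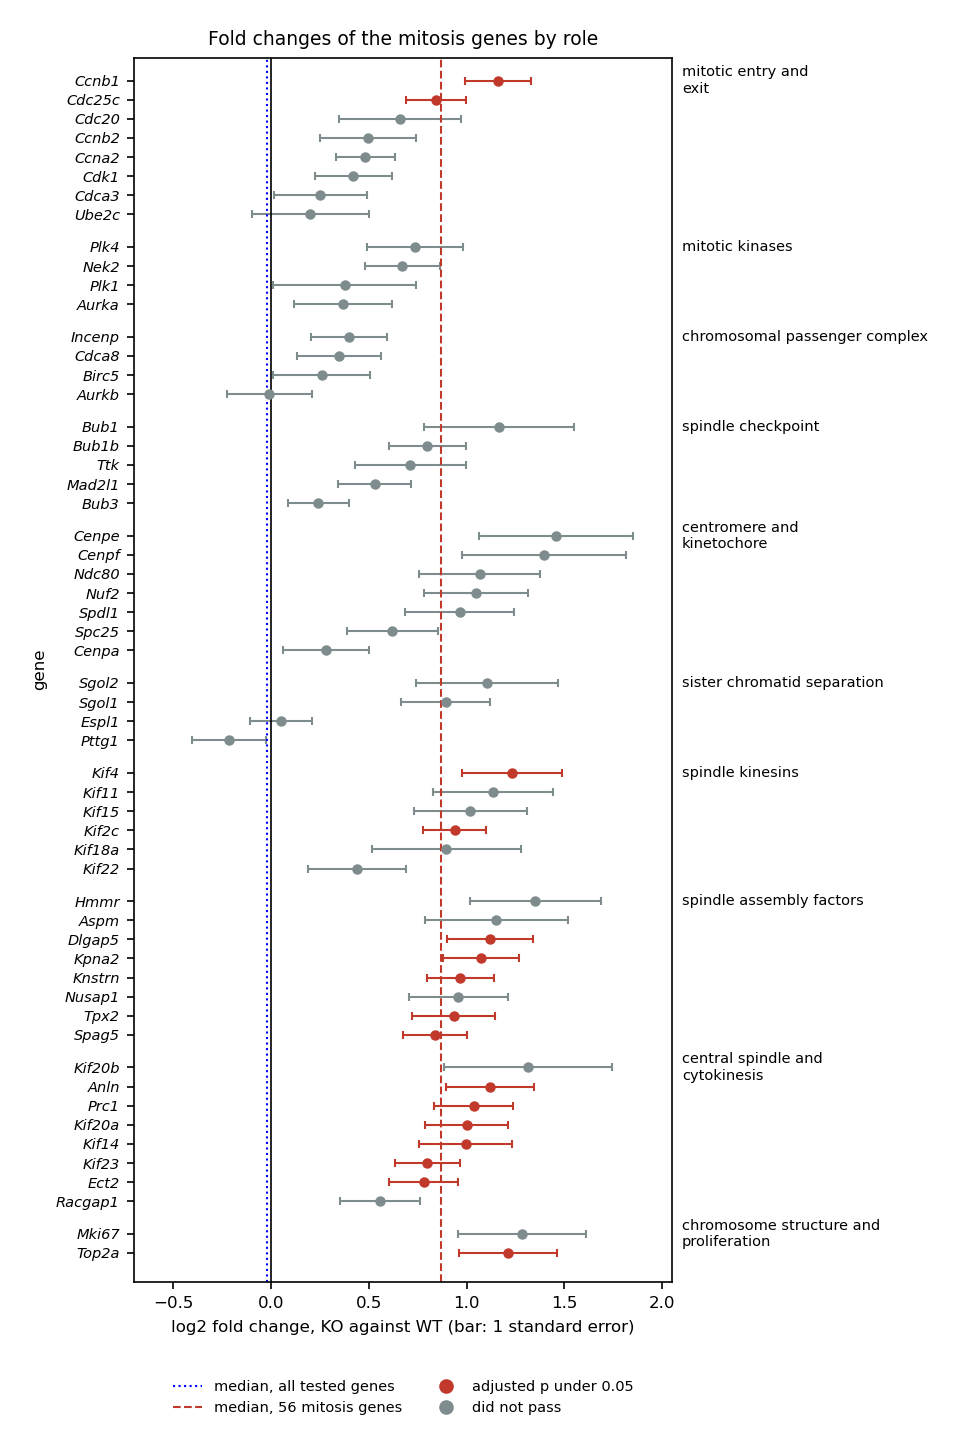
Fitted log2 fold change of each of the 56 mitosis genes, KO against WT (horizontal axis), grouped by role, with bars of 1 standard error, and dotted and dashed lines at the medians of all tested genes (-0.02) and of the 56 genes (0.87). The 16 genes with an adjusted p under 0.05 (red) lie between 0.78 and 1.23, and several genes with larger fold changes, such as Cenpe at 1.46, have wider bars and did not pass.

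The number that passed depended on which libraries were compared. Without WT1 there was 1 member higher, without WT2 5, without WT3 12, without KO1 4 and without KO2 1, whereas without KO3 there were 38. The share of all genes called higher was 2.12%, 3.22%, 2.17%, 1.98%, 1.41% and 16.9% in these fits. Of the 56 genes, Ccnb1 was the only one with an adjusted p under 0.05 in all 6 of them. The median fold change of the members moved less, between 0.757 and 1.003. The test used also mattered: edgeR's exact test called 34 members higher (7.76% of all genes) and DESeq2 35 (9.17%).

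Summed over the 56 genes, the level was 1093, 1016 and 1515 CPM in WT1, WT2 and WT3 and 2038, 2359 and 1938 CPM in KO1, KO2 and KO3. The groups did not overlap, and the mean was 1.75 times higher in KO (2111 ± 220 against 1208 ± 269 CPM, SD, n = 3). WT3 stood above the other WT libraries in 50 of the 56 genes, where it was the highest WT library in 30.9% of all genes. The highest library of the 6 was KO2 for 33 genes and KO3 for 20. In this bulk tissue, more cells in mitosis and more RNA per dividing cell cannot be told apart.

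**Figure D2:**
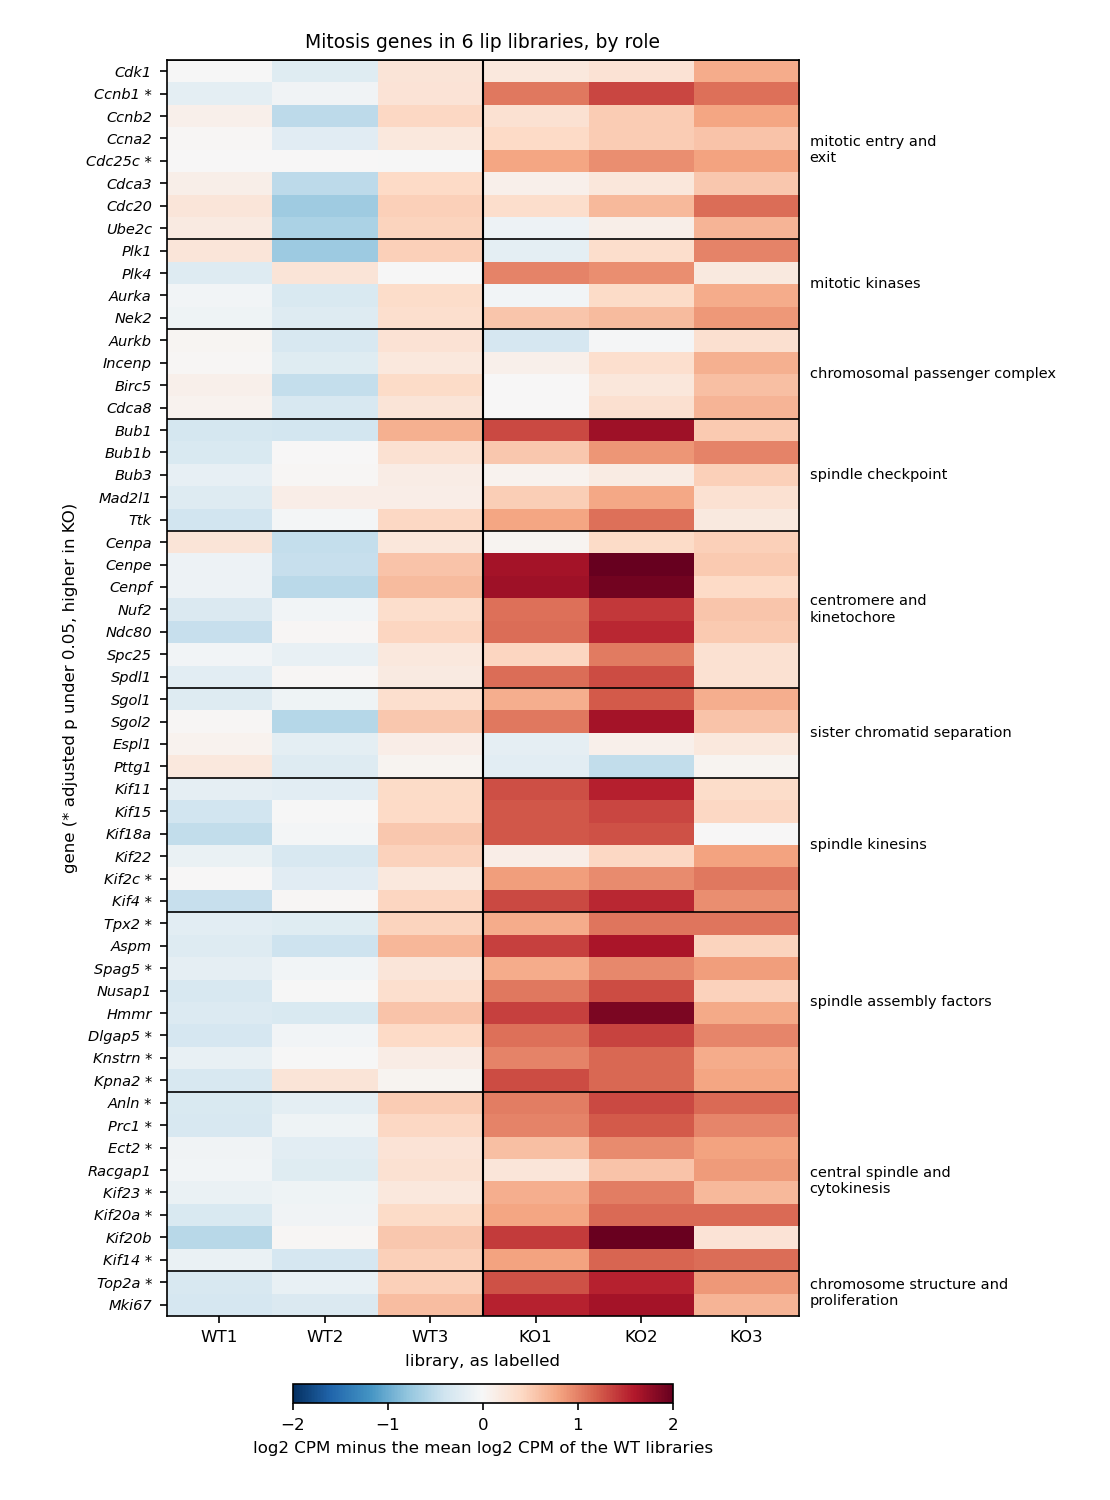
Level of each mitosis gene (vertical axis, by role, with an asterisk where the adjusted p was under 0.05) in each library (horizontal axis), as log2 CPM minus the mean log2 CPM of the 3 WT libraries, from blue (lower) to red (higher). WT3 is the reddest WT library. KO1 and KO2 are redder than KO3 in most kinetochore and spindle kinesin genes, whereas KO3 is the reddest KO library in most entry, kinase and passenger complex genes.

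Counts for each role are to be read against all tested genes, of which 4.38% were higher and 29.6% had an unadjusted p under 0.05. The exact test called 7.76% of its genes higher, and DESeq2 9.17%. A count of 0 higher in so few genes is near these shares and is not a result about a role. Among the 8 genes of mitotic entry and exit, 2 rose and the median log2 fold change was 0.49. Ccnb1 encodes cyclin B1, the partner of Cdk1 at mitotic entry. Its level was 18.1, 19.7 and 25.2 CPM in WT1, WT2 and WT3 and 43.2, 52.7 and 44.9 CPM in KO1, KO2 and KO3. The lowest KO library was thus well above the highest WT library, and the log2 fold change was 1.16 (SE 0.17, adjusted p = 0.00634). Ccnb1 (chr13:100778650-100786570) has 4 annotated near-identical pseudogene copies, so that its count is uncertain where reads match several places. Cdc25c, the phosphatase that removes the inhibitory phosphates from Cdk1, was at 6.03, 5.99 and 5.94 CPM in the WT libraries and at 10.4, 11.3 and 10.5 CPM in KO1, KO2 and KO3. The libraries of each genotype lay close together, and the log2 fold change was 0.84 (SE 0.15, adjusted p = 0.0184).

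The other 6 genes of this role did not pass the test. Cdc20, the mitotic activator of the APC/C, had the highest mean CPM of the role, with 44.7, 23.0 and 52.4 CPM in WT and 48.4, 58.8 and 81.9 CPM in KO. WT3 was above KO1, so that the groups overlapped (log2 fold change 0.66, SE 0.31, adjusted p = 0.198). Cdk1 itself was at 27.1 ± 4.69 CPM in WT and 36.3 ± 7.63 CPM in KO (SD, n = 3), and its groups overlapped as well, with an adjusted p of 0.192. Cyclin A2 (Ccna2) had KO libraries above all WT libraries, at 40.8 to 46.2 against 26.6 to 35.9 CPM, with an adjusted p of 0.0888. Ccnb2, Cdca3 and the APC/C-associated ubiquitin-conjugating enzyme Ube2c overlapped between the genotypes, with adjusted p from 0.217 to 0.678. An exon of Ube2c overlaps Tnnc2, the fast muscle troponin C gene on the opposite strand. Tnnc2 was counted at only 0 to 0.182 CPM, although the fast muscle gene Tnnt3 was at 461 to 1375 CPM, and whether this affected the count of Ube2c was not tested.

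**Figure D3:**
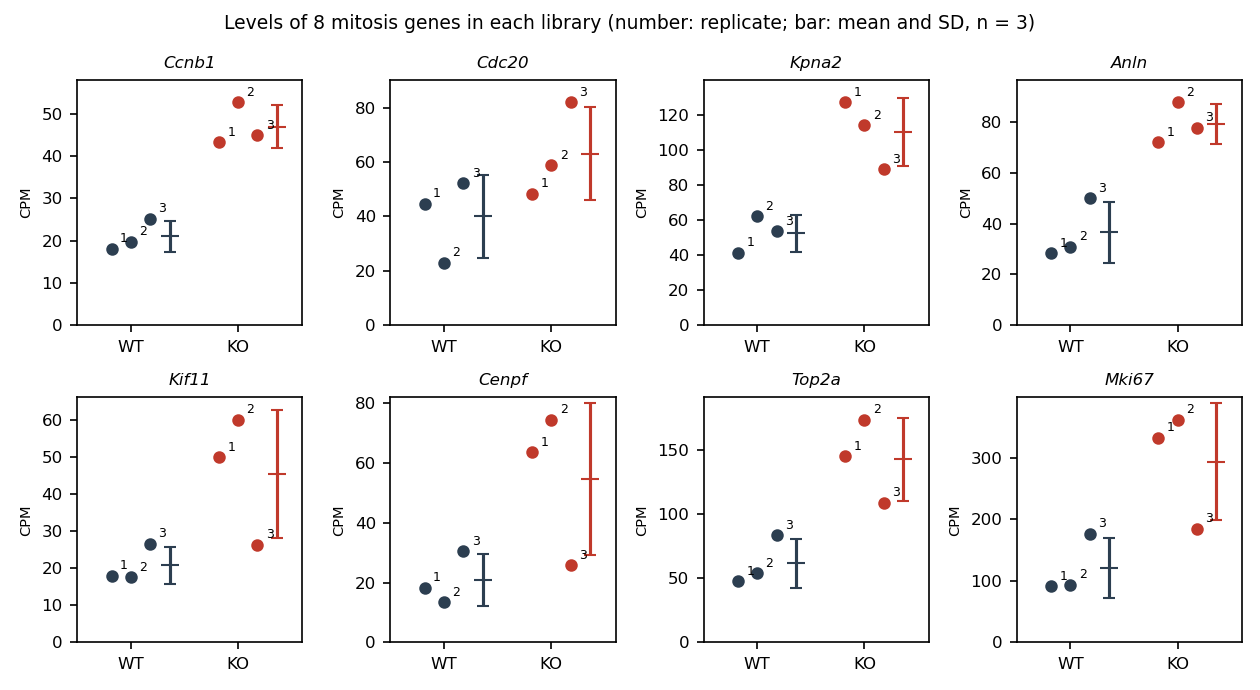
CPM (vertical axes, from 0) of 8 mitosis genes in each library, numbered by replicate, with the mean and SD of 3 libraries beside each genotype. In Ccnb1, Kpna2, Anln, Top2a and Mki67 the KO libraries lie above all WT libraries, whereas WT3 overlaps the KO libraries in Cdc20, Kif11 and Cenpf.

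None of the 4 mitotic kinases and none of the 4 genes of the chromosomal passenger complex passed the test. Both counts are near the 4.38% of all genes called higher and are not results about these roles. The median log2 fold changes were 0.52 and 0.30. With edgeR at an unadjusted p under 0.05 there were 2 and 0 (29.6% of all genes). The exact test and DESeq2 each called 2 and 0 (7.76% and 9.17% of all genes). Plk1, which acts at centrosomes, kinetochores and the midbody, was at 25.6, 13.1 and 30.2 CPM in WT and 18.8, 27.6 and 43.0 CPM in KO. KO3 alone was above all WT libraries, and the log2 fold change was 0.38 (SE 0.37, adjusted p = 0.513). Plk4, the kinase of centriole duplication, gave the reverse order among KO libraries, with 21.2 and 20.3 CPM in KO1 and KO2, 12.2 CPM in KO3 and 8.93 to 12.8 CPM in WT (adjusted p = 0.0995). Nek2, which acts in centrosome separation, had KO above WT in all libraries, at 22.6 to 28.0 against 12.9 to 19.3 CPM (adjusted p = 0.0737). Aurka, a kinase of the spindle poles, overlapped between the genotypes, with an adjusted p of 0.349.

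In the passenger complex, Incenp, the scaffold subunit, was at 37.7, 31.5 and 43.2 CPM in WT and 40.0, 47.1 and 61.1 CPM in KO. KO1 lay within the WT range, and the log2 fold change was 0.40 (SE 0.19, adjusted p = 0.205). The kinase of the complex, Aurkb, had nearly equal means, 23.0 ± 4.74 CPM in WT and 22.9 ± 5.12 CPM in KO (log2 fold change -0.01, SE 0.22), and the sign of its fold change turned with the scaling. The subunits Birc5 (survivin) and Cdca8 (borealin) had log2 fold changes of 0.26 and 0.35 with overlapping libraries. For all 4 subunits KO3 was the highest of the KO libraries.

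None of the 5 spindle checkpoint genes passed, near the 4.38% of all genes called higher, and the median was 0.71. In edgeR 4 of them had an unadjusted p under 0.05 (29.6% of all genes). The exact test and DESeq2 each called 2 (7.76% and 9.17% of all genes). Bub3, a scaffold protein of the checkpoint, had the highest CPM, at 50.6, 57.4 and 63.1 in WT and 59.6, 63.4 and 79.0 in KO. The groups overlapped and the log2 fold change of 0.24 (SE 0.16, adjusted p = 0.328) was the smallest of the role. Bub1b (BubR1), an inhibitor of Cdc20, was at 18.8 to 28.8 CPM in WT and 34.0 to 46.1 CPM in KO without overlap, just outside the threshold (log2 fold change 0.80, adjusted p = 0.0531). The kinase Bub1 had the largest fold change of the role, 1.17 on the log2 scale, but its KO libraries ranged from 7.36 CPM in KO3 to 16.6 CPM in KO2 and overlapped WT3 at 8.46 CPM (adjusted p = 0.0967). The kinase Ttk (Mps1) also had KO3 below WT3, while Mad2l1, the Mad2 protein, was without overlap at 15.2 to 21.01 against 10.2 to 13.5 CPM (adjusted p = 0.145 and 0.114).

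The 7 centromere and kinetochore genes had a median of 1.05, and 0 of them passed the test, near the 4.38% of all genes called higher. With an unadjusted p under 0.05 in edgeR there were 6 (29.6% of all genes). The exact test and DESeq2 each called 5 (7.76% and 9.17% of all genes). Cenpe, the kinesin that carries chromosomes to the spindle equator, had the largest fold change of all 56 genes. It was at 11.98, 9.35 and 19.1 CPM in WT1, WT2 and WT3 and at 41.0, 51.3 and 18.5 CPM in KO1, KO2 and KO3. KO1 and KO2 were above every WT library, whereas KO3 was below WT3, and the log2 fold change was 1.46 (SE 0.39, adjusted p = 0.0671). Cenpf, a large protein of the outer kinetochore, behaved alike, at 18.3, 13.6 and 30.4 CPM in WT and 63.5, 74.4 and 25.8 CPM in KO. Here too KO3 fell within the WT range (log2 fold change 1.40, SE 0.42, adjusted p = 0.0811). Without KO3 both passed, with adjusted p of 0.0019 and 0.00255.

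Of the Ndc80 complex, which binds microtubules, Ndc80, Nuf2 and Spc25 had all KO libraries above all WT libraries, with log2 fold changes of 1.07, 1.05 and 0.62 and adjusted p of 0.0782, 0.0568 and 0.128. Spdl1, which recruits dynein to the kinetochore, was without overlap as well (0.96, adjusted p = 0.0774). The centromeric histone Cenpa overlapped between the genotypes, at 19.9 to 32.7 CPM in WT and 28.5 to 38.5 CPM in KO, with an adjusted p of 0.414.

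None of the 4 genes of sister chromatid separation passed the test, near the 4.38% of all genes called higher, and the median was 0.47. In edgeR 2 of them had an unadjusted p under 0.05 (29.6% of all genes). The exact test and DESeq2 each called 2 (7.76% and 9.17% of all genes). The shugoshins Sgol1 and Sgol2, which protect cohesin, had KO above WT in all libraries, with log2 fold changes of 0.89 and 1.11 and adjusted p of 0.0595 and 0.0975. Sgol2 was the least abundant gene of the 56, at 1.23 to 2.65 CPM in WT and 2.70 to 5.75 CPM in KO. Separase, encoded by Espl1, was at 34.4, 28.6 and 35.9 CPM in WT and 29.1, 35.1 and 38.1 CPM in KO. The groups overlapped (log2 fold change 0.05, SE 0.16, adjusted p = 0.858), and the sign turned under other settings. Pttg1 encodes securin, the inhibitor of separase, and was at 30.7, 22.2 and 27.6 CPM in WT and 22.9, 18.9 and 27.6 CPM in KO. It had the lowest fold change of the 56 genes (-0.22, SE 0.19, adjusted p = 0.471), with overlapping groups.

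Among the 6 spindle kinesins 2 rose (4.38% of all genes), with a median of 0.98. The exact test and DESeq2 each called 4 (7.76% and 9.17% of all genes). Kif2c, which depolymerises microtubules at centromeres, was at 12.7, 10.8 and 14.5 CPM in WT and 22.5, 24.2 and 25.9 CPM in KO. The genotypes were separated by a gap wider than the range of either (log2 fold change 0.94, SE 0.16, adjusted p = 0.0147), and with each of the 6 libraries left out in turn the gene passed 4 times. Kif4, a chromokinesin that also acts in the central spindle, was at 5.73, 8.04 and 10.6 CPM in WT and 19.8, 22.4 and 15.04 CPM in KO. KO3 was the lowest KO library and still above WT3 (1.23, SE 0.26, adjusted p = 0.0315).

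Kif11, the motor that pushes spindle poles apart, did not pass. Its levels were 18, 17.7 and 26.7 CPM in WT and 49.99, 60.2 and 26.4 CPM in KO, so that KO3 matched WT3 (1.13, SE 0.31, adjusted p = 0.0676). Kif15, which shares this role, was at 12.8 CPM in KO3 and 12.6 CPM in WT3 (adjusted p = 0.0739), and Kif18a, which limits chromosome movement, was at 4.57 CPM in KO3 and at 6.61 CPM in WT3 (adjusted p = 0.163). Kif22, a chromosome arm motor, had KO3 as the highest library at 30.1 CPM but KO1 and KO2 at 18.8 and 23.1 CPM, within the WT range of 13.8 to 23.6 CPM (adjusted p = 0.27).

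Among the spindle assembly factors 5 of 8 rose (4.38% of all genes), and the median was 1.02. In 7 of 8 the KO libraries were above all WT libraries (13.5% of all genes). The exact test and DESeq2 called all 8 (7.76% and 9.17% of all genes). Tpx2, which activates Aurora A and starts microtubules near chromosomes, was at 19.5, 19 and 30.6 CPM in WT and 37.7, 47.1 and 47.0 CPM in KO. KO2 and KO3 were at the same level (log2 fold change 0.93, SE 0.21, adjusted p = 0.0434). Kpna2, an importin that carries cargo into the nucleus and binds Tpx2, was at 41.3, 62.0 and 53.7 CPM in WT and 127, 114 and 89.0 CPM in KO. All KO libraries were above WT2, the highest WT library, and the fold change was 1.07 (SE 0.20, adjusted p = 0.0188). Near-identical copies of Kpna2 are annotated, and the copy with 99.9% identity, Gm10184, held 1 to 13 counts in each library. Only uniquely mapped reads were counted, so that this low count does not show whether the count of Kpna2 was affected.

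Spag5 (astrin) and its partner Knstrn (kinastrin) hold kinetochores to microtubules. Spag5 was at 11.1, 12.2 and 14.9 CPM in WT and 21.3, 24.6 and 22.6 CPM in KO (0.84, SE 0.16, adjusted p = 0.0247). Knstrn was at 8.67, 9.61 and 10.7 CPM in WT and 19.2, 21.3 and 16.1 CPM in KO (0.97, SE 0.17, adjusted p = 0.0163). For both partners the KO libraries lay above all WT libraries. Dlgap5 (HURP), which stabilises kinetochore fibres, was at 7.51, 9.10 and 12.5 CPM in WT and 20.4, 24.1 and 18.7 CPM in KO (1.12, SE 0.22, adjusted p = 0.0246), again without overlap. The microtubule-binding proteins Nusap1 and Hmmr had KO above WT in all libraries but adjusted p of 0.0636 and 0.0541. Aspm, which acts at spindle poles, overlapped because KO3, at 21.6 CPM, was below WT3, at 25.01 CPM (1.15, adjusted p = 0.0909).

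Of the 8 central spindle and cytokinesis genes 6 rose (4.38% of all genes), with a median of 0.996. The exact test and DESeq2 each called 7 (7.76% and 9.17% of all genes). Anln encodes anillin, the scaffold of the contractile ring, and was at 28.5, 30.9 and 50.2 CPM in WT and 72.2, 87.8 and 77.8 CPM in KO. WT3 was the highest WT library and still far below KO1 (1.12, SE 0.22, adjusted p = 0.0277). Prc1, which crosslinks the microtubules of the central spindle, was at 20.1, 23.6 and 33.6 CPM in WT and 49.8, 58.7 and 49.8 CPM in KO (1.04, SE 0.20, adjusted p = 0.0257). Ect2, the exchange factor that activates RhoA at the division plane, was at 16.7, 15.1 and 21.1 CPM in WT and 26.6, 33.6 and 30.5 CPM in KO (0.78, SE 0.18, adjusted p = 0.0411). Both had a clear gap between the genotypes.

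Kif23 and Racgap1 together form centralspindlin. Kif23 was at 17.96, 18.4 and 22.8 CPM in WT and 32.4, 39.8 and 30.6 CPM in KO (0.80, SE 0.17, adjusted p = 0.0317). Racgap1 had a smaller fold change, 0.56, and overlapping groups, with KO1 at 45.6 CPM and WT3 at 48.0 CPM (adjusted p = 0.122). The partners thus fell on different sides of the threshold, though the difference between them was not tested. Kif20a, which carries the passenger complex to the central spindle, was at 10.2, 12.03 and 16.6 CPM in WT and 21.9, 27.9 and 27.8 CPM in KO (0.999, SE 0.21, adjusted p = 0.0333). Kif14, a kinesin of the midbody, was at 8.49, 7.36 and 13.0 CPM in WT and 16.3, 20.8 and 20.3 CPM in KO (0.99, SE 0.24, adjusted p = 0.0472). In neither kinesin did the genotypes overlap. Kif20b, another kinesin of late division, had 18.4 and 27.7 CPM in KO1 and KO2 but 8.51 CPM in KO3, within the WT range (1.31, adjusted p = 0.0964).

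Of the last 2 genes, Top2a rose. Top2a encodes topoisomerase II alpha, which untangles sister chromatids, and was at 47.6, 53.9 and 83.3 CPM in WT and 145, 174 and 109 CPM in KO. KO3 was the lowest KO library and was above WT3 (1.21, SE 0.25, adjusted p = 0.0314). Mki67, the proliferation marker Ki-67 that coats mitotic chromosomes, was the highest gene of the 56 in CPM, with 91.3, 93.7 and 176 CPM in WT and 332, 362 and 185 CPM in KO. KO3 was barely above WT3, and the fold change of 1.28 (SE 0.33) had an adjusted p of 0.0595. Per kilobase of exon the order differed, with mean KO levels of 38.3 CPM per kb for Kpna2, 33.8 CPM per kb for Cdc20 and 29.1 CPM per kb for Mki67. In WT, Cdc20 was highest at 21.4 CPM per kb and Kpna2 was at 18.2 CPM per kb. Mki67, at 11.98 CPM per kb, was also below Ccnb2 (14.4), Pttg1 (13.4) and Cdca3 (12.4).

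The order of the KO libraries differed among the genes, in shares near those of all genes. In 27 of the 56 genes (48.2%) KO3 was below both other KO libraries (41.8% of all genes), in 21 (37.5%) it was above both (44.5% of all genes) and in 8 (14.3%) it lay between them (13.8% of all genes). All 8 of the genes in between rose, as did 7 of the 27 and 1 of the 21, Kif2c. The share of all genes called in each order was not computed, so that these counts are not a result about the mitosis genes. The set with KO3 below held Cenpe, Cenpf, Kif11, Kif15, Aspm, Hmmr and Mki67, and the set with KO3 above held Cdk1, Cdc20, Plk1, Aurka and all 4 passenger complex genes.

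**Figure D4:**
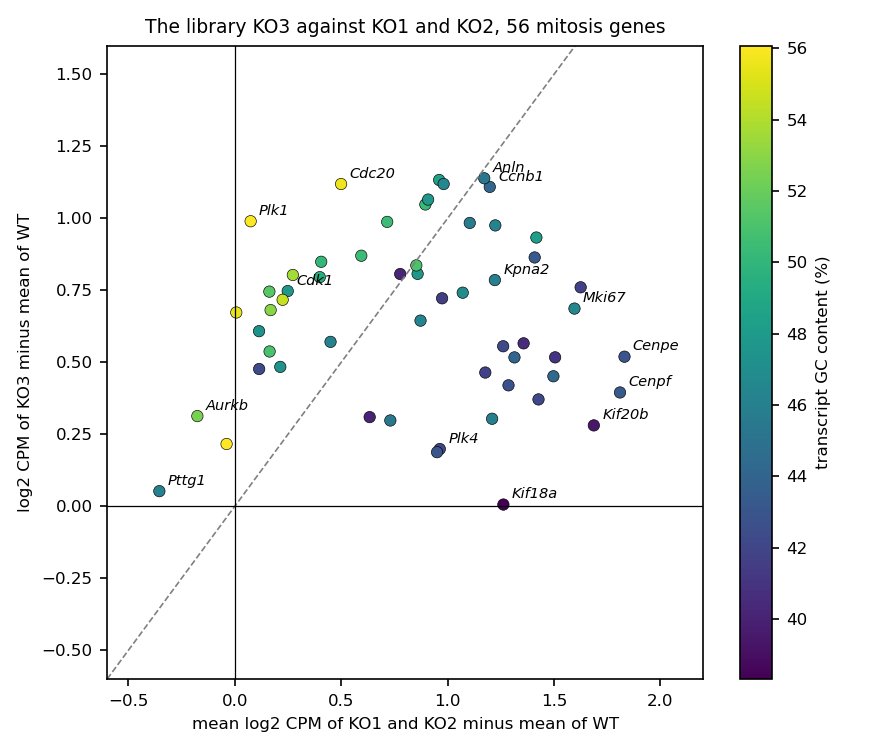
Log2 CPM minus the mean log2 CPM of WT for each of the 56 mitosis genes, in KO3 (vertical axis) against the mean of KO1 and KO2 (horizontal axis), coloured by transcript GC content, with a dashed line where both are equal. The distance above the line increases with GC content (Pearson r = 0.77 over 56 genes), with exceptions such as Bub3, at 42.3% GC and above the line.

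These sets differed in base composition. The median GC content of the longest annotated transcript was 43.0% where KO3 was lower and 50.4% where it was higher, and the median exonic length was 6.86 and 4.28 kb. Over the 56 genes, the difference between KO3 and the mean of KO1 and KO2 had a Pearson correlation of 0.77 with GC content. Over 14864 tested genes the correlation was 0.51, so that the relation was also present over all genes. These correlations are across genes, which share the libraries and are not independent replicates. In the lowest of 5 equal groups of genes by GC content (31.9% to 44.4%), the median difference from WT was 0.45 in KO1 and KO2 and -0.14 in KO3. The 21 mitosis genes in that group, 3 of which rose, were at 1.29 and 0.48. In the next group (44.4% to 48.5%), all genes were at 0.17 and 0.00 and the 19 mitosis genes, 11 of which rose, at 0.96 and 0.75. In the remaining 3 groups, in order of rising GC content, the order was the reverse, with 8 mitosis genes at 0.50 in KO1 and KO2 and 0.84 in KO3, 6 at 0.20 and 0.70 and 2 at 0.02 and 0.60, and 2, 0 and 0 of them rose. All genes in these groups were at -0.04 and 0.01, at -0.20 and -0.03 and at -0.32 and -0.10. The share of all genes called in each of the 5 groups was not computed, so that the counts that rose cannot be compared between groups.

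When the trend of each library on GC content was removed, which was chosen after seeing the data, 17 of the 56 genes were higher (6.78% of all genes) and the median fold change was 0.76. Ect2 and Kif14 then had adjusted p of 0.18 and 0.0587, and Nek2, Incenp and Bub1b passed, with 0.0427, 0.0433 and 0.0275. With the trends on length and GC content both removed, 15 genes were higher (6.98% of all genes) and the median was 0.72. The summed level with the GC trend alone removed was 1.64 times higher in KO. The part of base composition in the order of the KO libraries was not tested further.

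**Figure D5:**
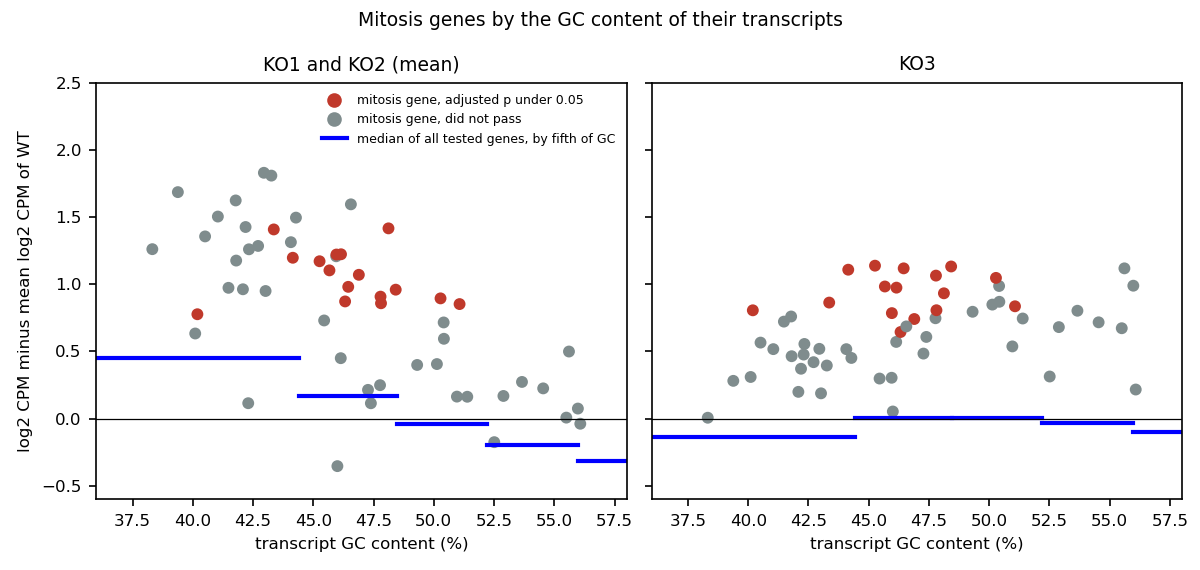
Log2 CPM minus the mean log2 CPM of WT (vertical axes) against transcript GC content (horizontal axes) for the mitosis genes in KO1 and KO2 (left, mean) and KO3 (right), with genes of an adjusted p under 0.05 in red and, as blue lines, the median of all tested genes in each of 5 equal groups by GC content. In KO1 and KO2 the differences decrease with GC content (Pearson r = -0.66 over 56 genes), in KO3 they do not (0.38), and most genes lie above the blue lines in both panels.

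The members also varied together across libraries. For 30 of the 56 genes the Pearson correlation of log2 CPM with the mean of the other 55 genes was over 0.9 over the 6 libraries, with a median of 0.91. Anln and Kif23 were the most alike to the group, at 0.99 each. Pttg1 was the only gene with a negative value, -0.49, and Aurkb, at 0.17, had the next lowest. Part of this is the difference between the genotypes, since with the mean of each genotype removed the median correlation was 0.71, and that of Kpna2 went from 0.84 to 0.15. The 6 libraries share depth and genotype, and the same values were not computed for all genes, so that they describe the pattern only.

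Other genes of mitosis, taken from lists that leave out the 56, were compared in the same fit. Of 120 tested genes 5 were higher (4.17%, near the 4.38% of all tested genes) and 0 lower, with a median of 0.25, with a positive fold change in 91 (48% of all genes), and 31 (25.8%) had an unadjusted p under 0.05, where 29.6% of all genes did. Neither the 4.17% nor the 25.8% is a result about these lists. Of the subunits and cofactors of the APC/C 0 of 16 passed and 1 had an unadjusted p under 0.05, with log2 fold changes from -0.36 to 0.58 and a median of 0.04. Against the same 4.38%, 1 of 31 other kinetochore and centromere genes rose (3.23%, median 0.36), 2 of 34 centrosome and spindle pole genes (5.88%, 0.36), 0 of 23 genes of G2/M control (0.24, with 5 at an unadjusted p under 0.05) and 2 of 16 abscission genes (12.5%, 0.13). The transcription factors of the mitotic programme, Foxm1 and Mybl2, had fold changes of 0.11 and -0.05, with adjusted p of 0.722 and 0.859.

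The 5 that rose, a number near the background share, were Mis12, Ckap2, Ckap2l, Cep55 and Diap3. Diap3, a formin that builds actin filaments, was at 10.3, 12.3 and 17.0 CPM in WT and 111, 92.1 and 38.0 CPM in KO, with a fold change of 2.61 (SE 0.39, adjusted p = 0.0073) that was larger than that of any of the 56 genes. All KO libraries were above all WT libraries, and KO3 was the lowest of them. Cep55, the midbody protein that recruits the abscission machinery, was at 4.90, 6.72 and 6.57 CPM in WT and 14.99, 17.9 and 9.83 CPM in KO (1.24, adjusted p = 0.0299). Ckap2 and Ckap2l, microtubule-associated proteins of the spindle, had fold changes of 1.04 and 0.82, and Mis12, a kinetochore linker, of 0.999, with adjusted p of 0.0167, 0.0266 and 0.0442. For these 3 genes as well all KO libraries were above all WT libraries.

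Genes of S phase and DNA replication, an earlier stage of the cycle, gave 0 of 38 higher and 0 lower. Over all tested genes 4.38% were higher and 2.09% lower, so that neither 0 is a result about this list. The median was 0.30, and the fold change was positive in 35 of 38, where 48% of all genes had a positive one. In edgeR's quasi-likelihood test 4 (10.5%, against 29.6% of all genes) had an unadjusted p under 0.05, and the exact test and DESeq2 each called 2, where they called 7.76% and 9.17% of all genes higher. Pcna, the sliding clamp of the replication fork, was at 69.4 to 93.4 CPM in WT and 73.3 to 87.7 CPM in KO, and the helicase subunit Mcm6 was at 22.5 to 59.3 and 45.9 to 59.8 CPM. WT2, the lowest WT library for 30 of the 56 mitosis genes (39.3% of all genes), was thus the highest WT library for both of these.

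Markers of the cell types in the lip were summed in each library, and their counts are to be read against the shares of all tested genes, 4.38% higher, 2.09% lower and 29.6% with an unadjusted p under 0.05. The summed level of 8 basal keratinocyte markers overlapped, at 10886 to 11892 CPM in WT and 10301 to 12161 CPM in KO, with 0 of 8 passing in either direction and 2 at an unadjusted p under 0.05. The single markers differed in direction. All KO libraries were below all WT libraries for Krt15 and Col17a1 (log2 fold changes -0.36 and -0.34). They were above for Trp63 and Itga6 (0.10 and 0.34), and the groups overlapped for Itgb4 and Lamb3. Krt5 and Krt14, which also overlapped, had the highest levels in this sum. Relative to this sum, the 56 mitosis genes amounted to 9.19%, 9.33% and 13.4% in WT1, WT2 and WT3 and 17.9%, 22.9% and 15.9% in KO1, KO2 and KO3, without overlap. Suprabasal markers were at 20556 to 25057 CPM in WT and 31553 to 48194 CPM in KO (1 of 9 higher, 5 with an unadjusted p under 0.05), and wound keratinocyte markers at 3929 to 5691 and 6088 to 9547 CPM (2 of 7 higher, 3 with an unadjusted p under 0.05). Hair matrix and shaft markers were at 10453 to 13426 CPM in WT and 6170 to 8808 CPM in KO (1 of 14 lower, 10 with an unadjusted p under 0.05), and skeletal muscle markers at 12213 to 15702 and 6013 to 9606 CPM (1 of 8 lower, 8 with an unadjusted p under 0.05). Dermal fibroblast markers were at 6355 to 8325 CPM in WT, at 2730 and 3491 CPM in KO1 and KO2 and at 6660 CPM in KO3 (0 of 6 passing, also at an unadjusted p under 0.05). Endothelial markers were at 132 to 172 CPM in WT and 98.9 to 166 CPM in KO (0 of 5 passing, 1 with an unadjusted p under 0.05). T cell markers, of which 6 of 8 were tested, were at 12.2 to 17.9 CPM in WT and 17.2 to 27.8 CPM in KO (0 of 6 passing, 3 with an unadjusted p under 0.05). The sum of 6 macrophage and Langerhans cell markers overlapped, at 165 to 223 and 176 to 218 CPM, with 1 of 6 higher and 0 lower. That 1 was Cd207, which defines Langerhans cells and was at 3.16, 4.29 and 3.55 CPM in WT and 13.0, 13.3 and 12.4 CPM in KO (log2 fold change 1.81, SE 0.18, adjusted p = 0.000932), while the other 5 had fold changes from -0.22 to 0.05 and the list a median of -0.03. The part of these differences in the levels of the mitosis genes was not tested.

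Several counts are uncertain for reasons of annotation. Near-identical copies, with at least 95% identity over 300 bases, are annotated for Ccnb1, Kpna2, Mad2l1, Ndc80 and Racgap1. The exons of 12 members overlap those of a counted gene on the opposite strand, and the strand setting of the counting is not given in the sources used here, so that reads of both genes may not be told apart. Among these partners Exosc9, opposite Ccna2, was at 7.80 to 12.3 CPM in WT and 11.8 to 21.4 CPM in KO (adjusted p = 0.103). Cdc23, opposite Kif20a, and Rccd1, opposite Prc1, had fold changes of 0.17 and -0.06 with adjusted p of 0.42 and 0.887. Some partners were counted above their member in every library. Elovl1, opposite Cdc20, was at 172.5 to 247.3 CPM, and Kctd18, opposite Sgol2, at 16.91 to 23.9 CPM. Pdzd11, opposite Kif4, was at 23.08 to 27.48 CPM. Their fold changes were -0.15, 0.19 and 0.12, and whether their reads affected the counts of the members was not tested.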

How the data were processed

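Paired-end reads had been aligned to the GRCm38 genome (TopHat2 2.0.8, Bowtie2 2.1.0, per the submitters' processing notes), and the values the authors deposited are raw read counts per gene symbol from HTSeq, without normalization. All 6 columns were used. The 15009 of 26814 genes that reached 1 CPM in 3 or more libraries were tested with edgeR 4.0.16 in R 4.3.3 (TMM, glmQLFit with legacy=FALSE, glmQLFTest) over all 6 libraries, with Benjamini-Hochberg adjustment over these genes and a threshold of 0.05 for the adjusted p. Tested genes held 99.8% of each library's counts. DESeq2 1.42.0, limma-voom (limma 3.58.1), edgeR's exact test, other scalings and filters, length and GC corrections, a replicate block and left-out libraries were the alternatives. Length and GC content came from GENCODE M21, near-identical copies from BLAST 2.17.0, and promoters from RefSeq. Symbols gave 26057 matches to the annotation, including all 56 members. The scripts were tested on simulated data with 3 libraries in each group. Of 100 genes changed by 1 on the log2 scale 51 were recovered, and of 100 changed by 2, 94. Of 158 calls 13 (8.23%) were false. The text gives all 56 genes by role, with every library's level for the genes that passed, the highest gene of each role and the largest and smallest fold change. The members and all lists were chosen with earlier results of these data known. The spreads given are SDs over the libraries of a genotype or standard errors from the fit.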

Additional observations from a re-analysis of the deposited data

How the results depend on the processing

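The choice of test and of libraries moved the number of mitosis genes called higher. It was 35 with DESeq2's Wald test, 34 with edgeR's exact test, 25 with no filter, 35 at an adjusted p under 0.1 and 30 with the GC trend removed and KO3 left out, against 16 in the reported fit, and ranged from 1 to 38 when 1 library was left out. The share of all genes called higher in these settings was 9.17%, 7.76%, 3.41%, 8.32% and 14.5%, against 4.38%, and 1.41% to 16.9% with 1 library left out, and the counts for the lists that follow are to be read against the same shares. For the other mitosis genes it was 20, 15, 8, 12 and 24 in the same order, 10 with the GC trend removed (6.78% of all genes) and 9 with length and GC trends removed (6.98%), against 5, and ranged from 0 to 39 with 1 library left out. The number of those genes called lower was 1 with the GC trend removed and KO3 left out, and 0 to 1 with 1 library left out. For S-phase genes it was 2 with DESeq2, 2 with the exact test, 1 at an adjusted p under 0.1 and 2 with the GC trend removed and KO3 left out, against 0, and ranged from 0 to 5. The 3 GC alternatives were chosen after seeing the data. The same-numbered libraries of the genotypes did not all deviate together (correlations -0.192, 0.293 and 0.312). Libraries of different numbers had correlations from -0.504 to 0.407. The replicate block, in which 13 mitosis genes were higher (3.86% of all genes) and 4 lost their call, is not a pairing of mice. The fold change of Aurkb turned positive with DESeq2's Wald test (0.037), its size factors (0.019), no filter (0.048), the GC trend removed (0.101), the length trend removed (0.065), both trends removed (0.143), and without KO1 (0.199), KO2 (0.062) or WT3 (0.138), within a range of -0.181 to 0.199 with 1 library left out. Espl1 turned negative with the length trend removed (-0.010), upper-quartile normalization (-0.005) and without KO3 (range with 1 library left out -0.033 to 0.213), Ube2c without KO3 (range -0.050 to 0.430), and Birc5 and Bub3 with the GC trend removed and KO3 left out (-0.053 and -0.302). The cause was not tested. The median fold change of the 56 genes stayed between 0.717 and 1.003 in these settings, and 0 of them were called lower in any. The least abundant of the 56 genes was Sgol2, with 1.23 CPM in its lowest library.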
